A study of Mus musculus with 12 samples.

Results

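Vnn1 encodes vanin-1, a pantetheinase, and its messenger RNA was followed in the adrenal glands of mice carrying extra copies of Ftz-F1. It was found by its symbol in the gene table of the array platform, which gave 1 probe of 25344 on the array and 1 gene of the 17882 named genes tested. The transcript assigned to that probe is the RefSeq transcript of Vnn1. Ftz-F1 (Nr5a1) encodes SF-1, a nuclear receptor that switches on steroidogenic genes in the adrenal cortex. Each transgenic mouse of line 56, marked YAC in the labels, was set on 2-colour arrays against a littermate of wild type that matched it in sex and age. 3 pairs were 4 months old with 2 transgene copies in the transgenic mouse, and 3 pairs were 10 days old with 1 copy. Pairs are named by the number of their transgenic mouse: pairs 1 and 3 (male) and 5 (female) at 4 months, and pairs 11 and 13 (male) and 15 (female) at 10 days. Every pair has 2 arrays, one for each assignment of the dyes, so there are 12 arrays and 6 independent pairs. All transgenic mice came from a single line, and age and copy number changed together, so these cannot be told apart.

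Vanin-1 is an enzyme held on the outer face of the cell membrane by a lipid anchor. It splits pantetheine, a breakdown product of coenzyme A, into pantothenate (vitamin B5), from which coenzyme A can be made again, and cysteamine, a small thiol that bears on the redox state of the tissue. In mice, Vnn1 is known as a gene of the adrenal cortex that depends on the dosage of SF-1, as a gene of the Sertoli cells of the developing testis and, in liver, as a target of the fatty acid receptor PPARalpha.

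All values below are log2 ratios of the 2 channels. Because the deposited ratios followed the signal of the spot and were not centred, each array was corrected by a smooth curve of ratio on signal (loess). The 2 columns of a pair ran the same way: after the mean of the arrays with the same dye was taken off, they correlated at 0.24 to 0.67 over features, against -0.27 to 0.12 between different pairs. The sources used here do not say which mouse is the numerator of the ratio, so its direction is kept as deposited, and the signs printed are those after the correction. A negative ratio stands for a lower level in the transgenic mouse if that mouse is the numerator, and for a higher level in it otherwise. In whole adrenal RNA, fewer cells of a type and less RNA per cell cannot be told apart. Of the adrenal cortex markers, 9 had a signal, which was above that of a median of 98.3% of probes (lowest 56.4%).

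Nr5a1, the gene of the transgene, had pair values of -0.46, 0.11 and -0.22 in pairs 1, 3 and 5 at 4 months, and of -0.57, -0.65 and -0.79 in pairs 11, 13 and 15 at 10 days. It was negative in 5 of 6 pairs, with a mean of -0.43 (SE 0.09, 6 pairs) that did not pass in limma (adjusted p = 0.104). Its array pairs disagreed in sign in pairs 1 and 3 and were negative on both arrays in the other 4.

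Vnn1 stood far from 0 in every pair, negative in 5 and positive in 1. At 4 months its ratio in pair 1 was -1.87 where the transgenic RNA carried Cy3 and -0.17 where it carried Cy5. In the same dye order it was -1.58 and -1.34 in pair 3, and -2.33 and -2.54 in pair 5. All 6 arrays of this age were negative after the correction. Before it the Cy5 array of pair 1 was at 0.24, and the other 5 were negative. At 10 days it was -1.21 and -1.14 on the arrays of pair 11, and -2.94 and -2.83 on those of pair 13. In pair 15 it was 1.68 and 1.67, so the 10-day group held both the lowest and the highest Vnn1 value of the study.

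**Figure D1:**
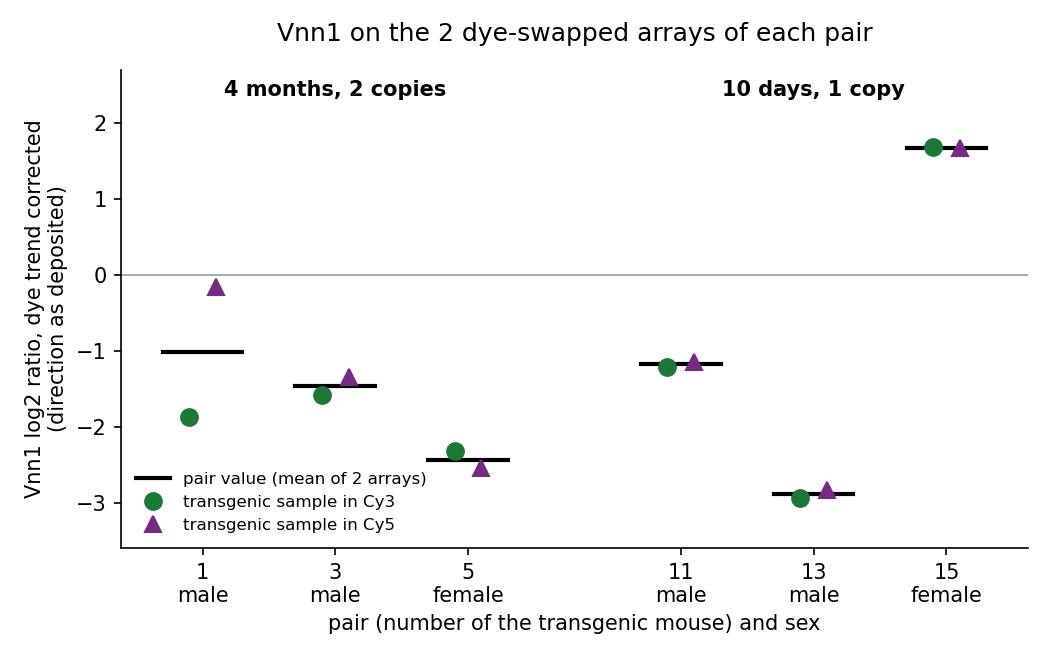
Vnn1 log2 ratio (vertical axis, dye trend corrected, direction as deposited) on the 12 arrays, by pair, with the 3 pairs of 4 months on the left and the 3 pairs of 10 days on the right. Points are single arrays and bars are means of the 2 arrays of a pair. The arrays of a pair lie close together except in pair 1, and pair 15 at 1.68 is the only pair above 0.

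The dye-swapped arrays agreed closely for Vnn1. Their difference was 0.24 in pair 3, 0.22 in pair 5, 0.07 in pair 11, 0.11 in pair 13 and 0.0026 in pair 15. Pair 1 was the exception, with a difference of 1.70. The median difference was 0.17, against a median of 0.31 over the 17048 named genes with a value on all 12 arrays. The SD of the pair values of Vnn1 was 1.60 (n = 6), against a median SD of 0.23 over these genes. Vnn1 ranked 35th among them by this SD. It had the same sign on both arrays in each of the 6 pairs, as did 1126 (6.60%) of these genes. For Vnn1 in pair 1 this holds only after the correction, since the deposited ratios were -1.82 and 0.24. The SD of Vnn1 over pairs was thus larger than the difference between its 2 arrays in all pairs but pair 1, where the 2 values were close. A difference of 2 arrays and an SD of pair values are unlike measures, so this comparison is rough.

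In increasing order, the pair values were -2.89 in pair 13, -2.43 in pair 5, -1.46 in pair 3, -1.18 in pair 11, -1.02 in pair 1 and 1.68 in pair 15. The arrays of pair 1 span the values of pairs 3 and 11, so pair 1 is not separated from either by the repeated arrays, while the arrays of pairs 3 and 11 do not overlap each other. Those of pairs 13, 5 and 15 do not overlap those of any other pair. As fold differences between the 2 mice of a pair, these values are 7.40-fold in pair 13, 5.41-fold in pair 5, 2.75-fold in pair 3, 2.26-fold in pair 11, 2.02-fold in pair 1 and 3.19-fold, in the opposite direction, in pair 15.

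On the 6 arrays where Cy3 marked the transgenic RNA, the deposited ratios are quotients of whole numbers, which show the size of the signals behind Vnn1 before any correction. In lowest terms they were 679 over 2403 in pair 1, 1418 over 3247 in pair 3, 1189 over 5729 in pair 5, 1148 over 2553 in pair 11 and 1013 over 8603 in pair 13. In pair 15 the quotient was 3005 over 1101, the highest upper and the lowest lower number of the 6. Which mouse stands above the line is not given, and a factor common to both numbers may have cancelled. The probe was brighter than 90.2% of probes by this measure and lay below the limit of a 16-bit scanner, and signal over background is unknown.

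Within each pair, Vnn1 lay near the edge of all features tested. In pair 13 it had the 2nd lowest ratio of 21334 features and in pair 5 the 10th lowest of 21383. In pair 15 it had the 40th highest ratio of 21349. It was less extreme in pair 11, where it ranked 149th lowest of 21246, in pair 1, at 182nd lowest of 21066, and in pair 3, at 283rd lowest of 21398. In pair 3 the ratios of all features spread most, with an SD of 0.46 against 0.25 in pair 13.

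**Figure D2:**
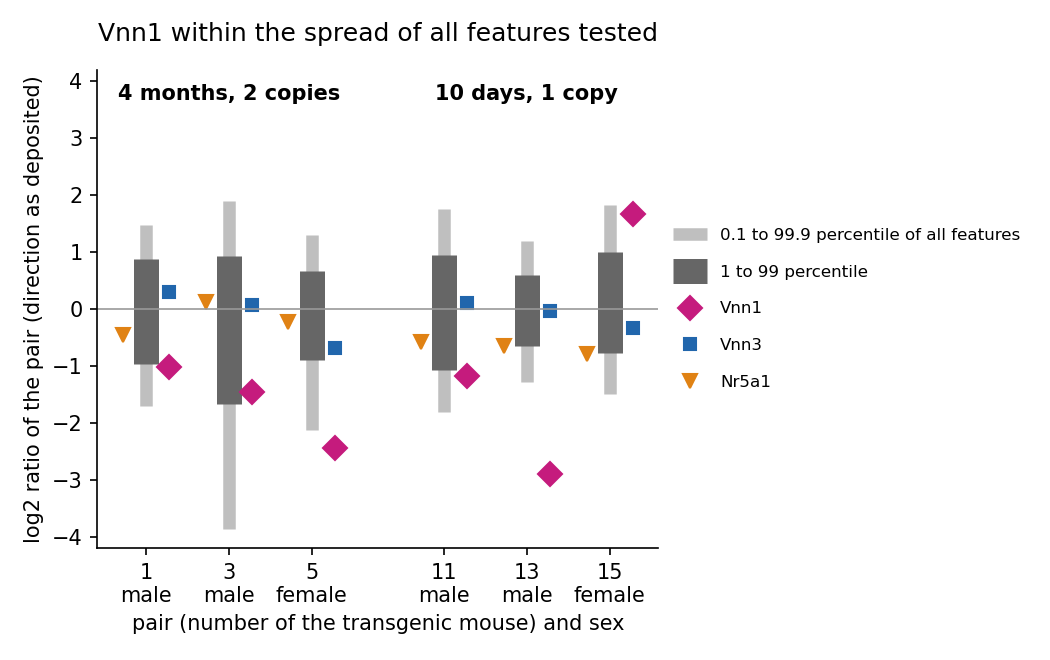
Pair values (log2 ratio, vertical axis) of Vnn1, its paralog Vnn3 and Nr5a1, beside the central 98% (dark bars) of all features tested in that pair and a wider range that leaves out 0.1% at each end (light bars). Vnn1 falls outside the light bar in pairs 5 and 13 and inside it in the other 4 pairs, while Vnn3 lies within -0.68 to 0.30.

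Over all 6 pairs, which asks whether Vnn1 differs in the transgenic mice whatever their age, the mean Vnn1 ratio was -1.22 ± 1.60 (SD, n = 6), a 2.33-fold difference. In limma, fitted to all 21513 features, it had an SE of 0.50, a 95% interval of -2.38 to -0.06, an unadjusted p = 0.042 and an adjusted p = 0.316. Vnn1 therefore did not pass the adjusted threshold of 0.05, which 12 features (0.0558%) passed. Its mean was the 10th lowest of all features, and 14 features had a larger mean in size, but it ranked 2861st by p. An exact two-sided sign-flip test over the 6 pairs gave p = 0.156, where the smallest p possible is 0.0312. With the ratios as deposited and not centred, the mean was -1.07 and passed (adjusted p = 0.0204), as did 5964 features. The 6 arrays with Cy3 on the transgenic RNA gave -1.38 alone (limma adjusted p = 0.11), and the 6 with Cy5 on it gave -1.06 (adjusted p = 0.177). The 2 sets were also deposited at different precision, so dye orientation cannot be told apart from other differences between the sets.

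The spread of this mean rests most on pair 15. Without that pair, the mean was -1.84 (SE 0.28), with an unadjusted p = 3.32e-04 and an adjusted p = 0.0931 in limma. Without pair 13, the pair at the other end, it was -0.69 (adjusted p = 0.601). The 5 pairs other than pair 15 averaged -1.80 ± 0.82 (SD, n = 5), and each was below 0.

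**Figure D3:**
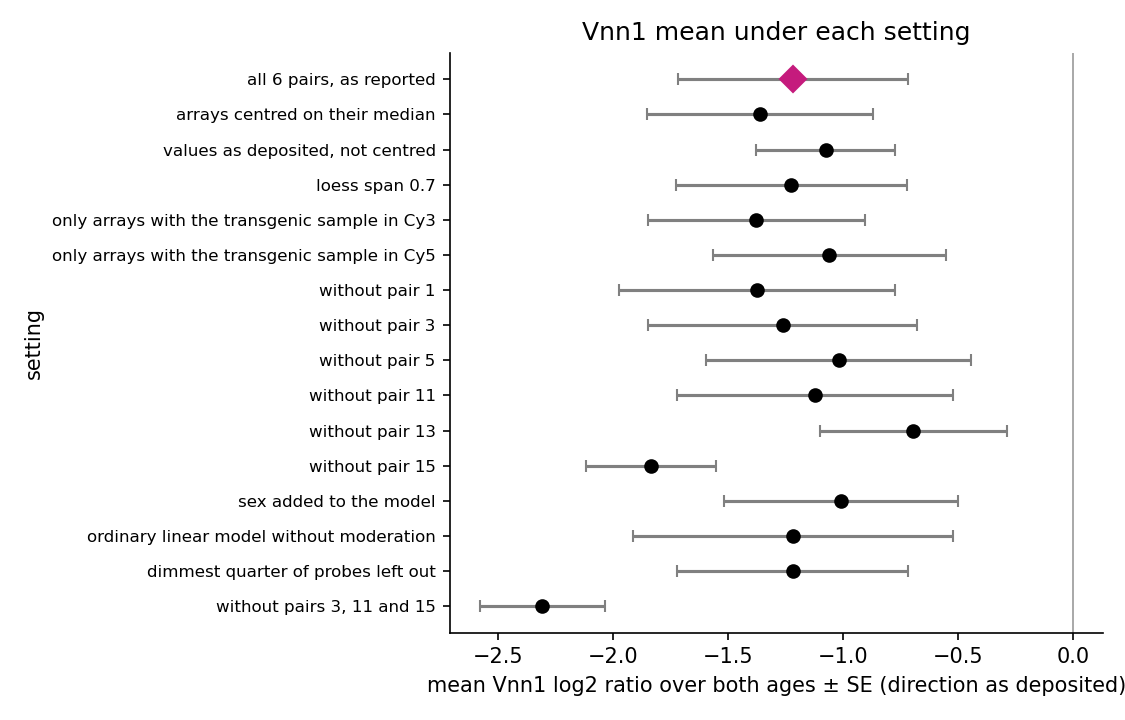
Mean Vnn1 log2 ratio over both ages (horizontal axis, with SE as the bar) as reported (diamond) and under each alternative setting (circles). Every mean is below 0, from -2.31 without pairs 3, 11 and 15 to -0.69 without pair 13. The setting without pairs 3, 11 and 15 was chosen after the values were seen and leaves out the only positive pair.

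At 4 months with 2 copies, Vnn1 averaged -1.64 ± 0.73 (SD, n = 3), a 3.11-fold difference, and was negative in 3 of 3 pairs. Limma gave an SE of 0.71, a 95% interval of -3.28 to 0.0041 and an adjusted p = 0.407 (unadjusted p = 0.0504). At 10 days with 1 copy, Vnn1 averaged -0.80 ± 2.31 (SD, n = 3) and was negative in 2 of 3 pairs. Limma gave an SE of 0.71, a 95% interval of -2.44 to 0.84 and an adjusted p = 0.813 (unadjusted p = 0.295). At neither age did any feature pass over all features (0% and 0%), with 12.3% and 8.34% at an unadjusted p under 0.05. Without pair 15 the 10-day mean was -2.03 (adjusted p = 0.386), and without pair 13 it was 0.25 (adjusted p = 0.994), so its sign rests on which of these pairs is kept.

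The 4-month minus 10-day difference, which asks whether the response depends on age and copy number, was -0.84 (SE 1.00, 95% interval -3.16 to 1.48, limma adjusted p = 0.947), and 0% of features passed. The exact two-sided permutation of the group labels gave p = 0.8, where the smallest p possible is 0.1. Without pair 15 this difference was 0.40. The 4-month values (-2.43 to -1.02) lay inside the range of the 10-day values (-2.89 to 1.68).

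The female pairs held Vnn1 values at both ends, -2.43 in pair 5 and 1.68 in pair 15, while the 4 male pairs ran from -2.89 to -1.02. The female minus male difference, with age group in the model, was 1.26 (SE 1.02, 95% interval -1.14 to 3.65, limma adjusted p = 0.929, 0% of features passing). The exact two-sided permutation of the sex labels, which did not take age group into account, gave p = 0.4, with 0.0667 as the smallest p possible. Without pair 15 the difference was -1.20, and without pair 5 it was 3.71. Each of these rests on a single female pair, so it cannot be told apart from that pair.

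Marker transcripts of other cell types differed in some of these pairs, and their values stand beside Vnn1 here. In pair 15, where Vnn1 was 1.68, all 9 of 9 measured adipocyte markers were positive, with a median of 1.63, and Adipoq, the adiponectin gene, was at 5.13. The adipocyte medians of the other pairs ran from -0.30 to 0.10. Macrophage markers in pair 15 had a median of 0.62, with 9 of 11 positive. The part of these cells in the Vnn1 value of pair 15 was not tested. In pair 13, where Vnn1 was lowest, the medians were 0.04 for hepatocyte, -0.01 for kidney tubule, 0.04 for adipocyte, -0.05 for macrophage and 0.04 for lymphocyte markers, beside a median of -0.01 over all features. Single markers lay further out in that pair, in both directions. Alb, the albumin gene, was at 1.70, and the adipocyte genes Fabp4 and Adipoq were at 0.95 and 0.71. On the negative side, H2-Ab1 of the lymphocyte markers was at -0.98 and Slc5a2 of the kidney tubule markers at -0.95. In pair 5, the other strongly negative pair, the 5 medians were -0.02, 0.04, 0.10, -0.47 and -0.08. Chromaffin markers had a positive median in each of the 6 pairs, from 0.19 in pair 11 to 0.73 in pair 15, whatever the sign of Vnn1.

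Hepatocytes and kidney tubules are known sites of Vnn1 in mice. Hepatocyte markers were positive for 13 of 13 genes in pair 11, with a median of 1.42, and Alb was at 6.73 there. Vnn1 was -1.18 in that pair, and the part of hepatocytes in this value was not tested. Kidney tubule markers had medians between -0.01 and 0.04 in the 6 pairs. Their probes were dim, with signals from 122 for Slc22a12 to 570 for Umod, against 2494 for Vnn1. The part of kidney tubule cells in the Vnn1 values was not tested. In pair 3, where Vnn1 was -1.46, lymphocyte markers had a median of -1.63 (0 of 10 positive) and macrophage markers one of -1.20. Leaving out pairs 3, 11 and 15 together, a setting chosen after the values were seen, gave a Vnn1 mean of -2.31 (adjusted p = 0.341), which rests on pairs 1, 5 and 13, with the lone 10-day pair taken to vary like the 4-month pairs.

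The paralog Vnn3, which lies beside Vnn1 on the chromosome and encodes another vanin, had a ratio closer to 0 than that of Vnn1 in every pair. Vnn3 was at 0.30, 0.07 and -0.68 in pairs 1, 3 and 5 and at 0.10, -0.03 and -0.34 in pairs 11, 13 and 15. Its mean was -0.10 (SE 0.13, limma adjusted p = 0.777), and its sign matched that of Vnn1 in 2 of 6 pairs. The 2 arrays of Vnn3 disagreed in sign in pairs 1 (-0.31 and 0.92), 3 (-0.23 and 0.38) and 13 (-0.08 and 0.02), so its sign is not settled there. Btd, which encodes biotinidase, a related hydrolase that frees biotin, had a mean of -0.06 (SE 0.09, adjusted p = 0.801) and lay between -0.30 and 0.23.

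The other genes around Vnn1 on mouse chromosome 10 had pair values between -0.55 and 0.58. Beyond Vnn3 lay Slc18b1, a polyamine transporter gene, with a mean of 0.03. Next to it was Rps12, a ribosomal protein gene. Quotients were recovered only for arrays with Cy3 on the transgenic RNA, and that of Rps12 was 1 over 1 on most of these. The size of the signals behind such a quotient is unknown, and the ratio of Rps12 is not given. On the other side were the trace amine receptor genes Taar1, with a mean of 0.23 (adjusted p = 0.257), and Taar2, with a mean of 0.21 (adjusted p = 0.265), and the syntaxin gene Stx7, with a mean of -0.0032. None of these genes or Vnn3 passed in limma.

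Of the other 19 genes of the vanin family and the coenzyme A pathway, 18 were measured and Enpp1 was not tested. Over 6 pairs, 0 of 18 passed in limma (background 0.0558%) or in the ordinary linear model, and 1 was at an unadjusted p under 0.05, against 15% of all features. Of the 18 means 14 were negative and 4 positive, with a median of -0.10, against -0.01 over all features. At 4 months and at 10 days 0 passed in either model, as did 0% of all features. At an unadjusted p under 0.05 in limma there were 1 and 1, against 12.3% and 8.34% of all features. The mean of Vnn1 was larger in size than that of each of these 18 genes, which ran from -0.28 to 0.09.

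Pantothenate enters cells through the vitamin transporter encoded by Slc5a6, whose mean was -0.20, with single pairs from -0.63 to 0.67. It is phosphorylated by the pantothenate kinases in the first step of coenzyme A synthesis. Pank1 was at -0.03, Pank2 at -0.24 (unadjusted p = 0.0371, adjusted p = 0.302), Pank3 at -0.15 and Pank4, which is related to these kinases, at -0.16. Ppcs, which adds cysteine, was at -0.28 with pairs from -0.95 to 0.45, and Ppcdc, the decarboxylase that follows, was at -0.19 in the 5 pairs measured. Coasy, which completes coenzyme A, was at -0.18, and Dcakd, a putative kinase of its last step, at 0.02.

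Coenzyme A is moved into mitochondria by the carrier of Slc25a42, at 0.09, a role also given to Slc25a16, at -0.16. Aasdhppt, which transfers the phosphopantetheine group to carrier proteins, was at -0.08. Nudt7, Nudt8 and Nudt19, which encode hydrolases that degrade coenzyme A in peroxisomes or mitochondria, were at 0.04, -0.11 and -0.06, and Enpp3, an ectonucleotidase gene, was at 0.04. In pair 13, where Vnn1 was at -2.89, all of these other genes lay between -0.63 and 0.29.

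**Figure D4:**
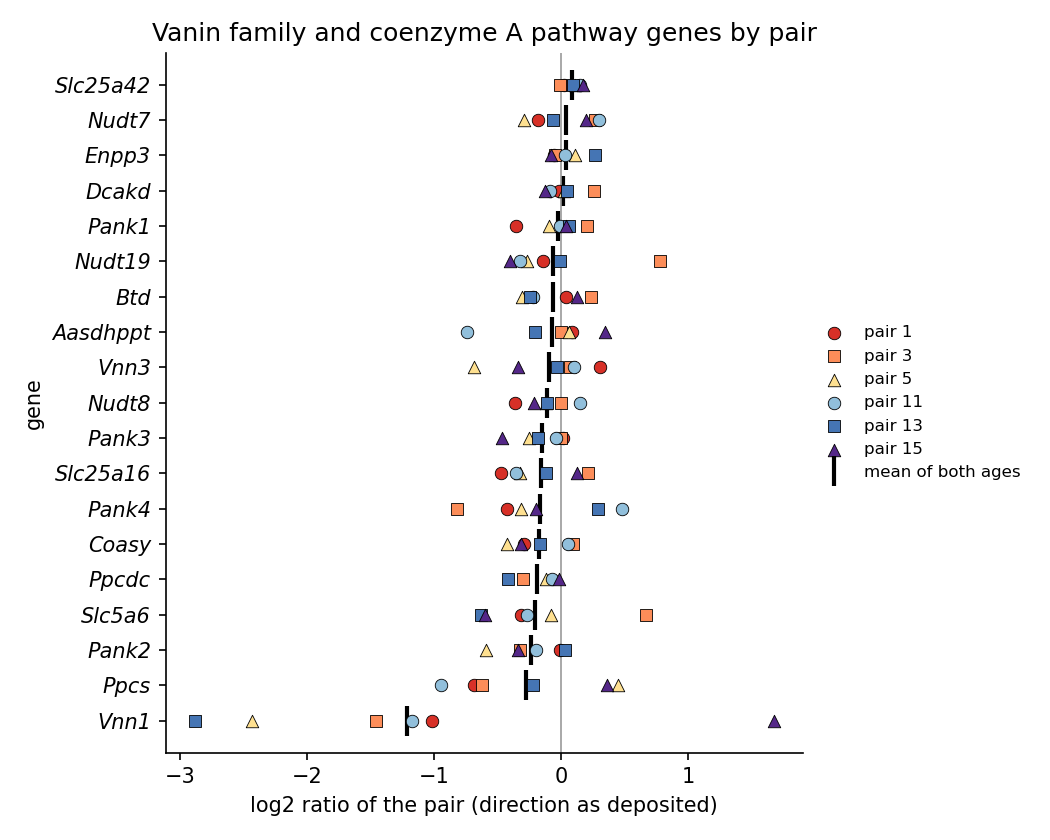
Log2 ratio (horizontal axis) of each measured gene of the vanin family and coenzyme A pathway (rows, ordered by mean) in the 6 pairs, with the mean of both ages as a vertical mark. Vnn1, on the lowest row, spans -2.89 to 1.68, while the other 18 genes lie between -0.95 and 0.78.

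Genes that handle cysteamine, cysteine and taurine, the side of the reaction that leads to thiols, also gave 0 of 10 calls over 6 pairs, both in limma and without moderation, and 3 at an unadjusted p under 0.05. Over all features these shares were 0.0558% and 15%. The lowest were Bhmt, which remethylates homocysteine, with a mean of -1.50 (adjusted p = 0.447), and Slc6a6, the taurine transporter gene, at -0.47 (adjusted p = 0.153). The Bhmt mean came from pairs 5, at -6.44, and 15, at -2.46. The highest were Mpst, a sulfurtransferase gene, at 0.39 (adjusted p = 0.149), and Cth, which forms cysteine, at 0.17 (adjusted p = 0.699).

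Of the 29 genes of glutathione and redox defence, 26 were measured. Limma called 0 of them, beside 0.0558% of all features. The ordinary model also called 0, beside 1 of all 21513 features. There were 3 of 26 at an unadjusted p under 0.05, a share below the 15% of all features, and the median was -0.01. The extremes were the quinone reductase gene Nqo1 at -0.39, the mitochondrial peroxiredoxin gene Prdx3 at -0.35, the catalase gene Cat at 0.22 and the peroxiredoxin gene Prdx4 at 0.26. Nqo1 was at -1.29 in pair 5.

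Of 21 genes of PPARalpha and its targets, 18 were measured, with a median of 0.06 and 0 calls with or without moderation. Over all 21513 features, 0.0558% were called with moderation and 1 feature without it. At an unadjusted p under 0.05 there were 4, beside 15% of all features. Angptl4, an inhibitor of lipoprotein lipase, was lowest at -0.29, followed by the peroxisomal enzyme gene Ehhadh at -0.21. Pdk4, which restrains pyruvate dehydrogenase, was highest at 0.63 (adjusted p = 0.236), followed by Hadha, of fatty acid oxidation, at 0.48 (adjusted p = 0.14). Pdk4 had its highest value, 1.88, in pair 15, the pair in which Vnn1 was positive and adipocyte markers were at 1.63. In pair 13 Pdk4 was at 0.86 while Vnn1 was at -2.89.

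The list of SF-1 and steroidogenic genes of the adrenal cortex, many of them known targets of SF-1, had a median of -0.09. It holds Nr5a1 itself and genes that do not encode enzymes of steroid synthesis, such as Nr0b1 and Mc2r. Of its 22 genes 16 were measured, 12 with a negative mean, and 0 passed in limma or the ordinary model. Over all features, 0.0558% passed in limma and 1 feature in the ordinary model. In limma 3 of them, Nr5a1, Nr0b1 and Fdx1, were at an unadjusted p under 0.05, beside 15% of all features. Of all 21513 features, 11381 had a negative mean. Cyp21a1, which encodes the 21-hydroxylase, was at -1.41, 1.64 and 0.75 in pairs 1, 3 and 5, and at -3.18, -3.96 and 0.25 in pairs 11, 13 and 15 (mean -0.99, adjusted p = 0.459). It has a near-identical pseudogene, so its probe may read both. Akr1c18, the progesterone-reducing enzyme gene of the X zone, was at 0.07, 0.18 and -2.56 at 4 months and at -1.47, -0.27 and 0.56 at 10 days (mean -0.58, adjusted p = 0.523). In pair 5 it thus lay near the Vnn1 value of -2.43. Highest were Cyp11a1, the side chain cleavage enzyme gene, at 0.38 (adjusted p = 0.457), and Fdx1, its electron carrier, at 0.38 (adjusted p = 0.268), both positive in all pairs but pair 11.

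Likeness to Vnn1 was taken as the smaller of 2 Pearson correlations (Cy3, then Cy5, on the transgenic RNA), one for each dye assignment over its 6 arrays, among 17047 named genes. The correlations are descriptions over 6 pairs, and the 2 arrays of a pair share their RNA. The most alike was Usp17la, of a multigene family of deubiquitinases whose copies one probe may not separate, at 0.98 and 0.94. It was at -0.14, -0.47 and -1.09 in pairs 1, 3 and 5 and at -0.18, -1.22 and 1.04 in pairs 11, 13 and 15. The 6 pairs stood in the same order as for Vnn1, and each ratio was smaller in size.

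The next were Pnpla3, a lipid droplet hydrolase gene (0.91 and 0.95), Gbp2, an interferon-induced GTPase gene (0.93 and 0.86), Lrrc46 (0.85 and 0.88), the myoglobin gene Mb (0.84 and 0.89) and the fatty acid binding protein gene Fabp7 (0.84 and 0.92). All 6 had their highest value in pair 15, from 0.10 for Gbp2 to 2.25 for Pnpla3. Over the 5 pairs other than pair 15, a setting chosen after the values were seen, Usp17la kept correlations of 0.87 and 0.95. By the smaller value it then ranked 22nd, so other genes were more like Vnn1 in these pairs. That value was 0.16 for Pnpla3, 0.55 for Gbp2, 0.40 for Lrrc46, 0.40 for Fabp7 and -0.82 for Mb. For the 5 genes other than Usp17la the likeness rests on pair 15.

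**Figure D5:**
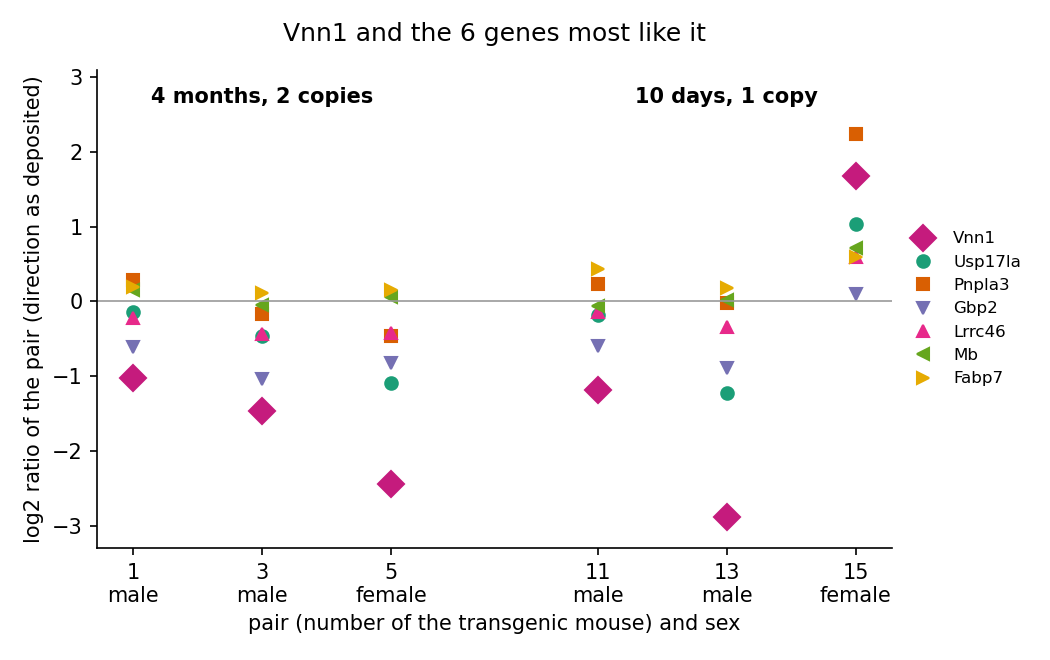
Pair values (log2 ratio, vertical axis) of Vnn1 (large diamonds) and the 6 named genes most like it, with the 3 pairs of 4 months on the left and the 3 of 10 days on the right. All 7 genes are highest in pair 15, and Usp17la is lowest in pairs 13 and 5, at -1.22 and -1.09, as is Vnn1.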

How the data were processed

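Adrenal RNA of 6 transgenic and wild-type littermate pairs was measured on 12 2-colour arrays. The deposited values are log2 ratios per spot for 25344 spots, and the sources used here name no normalization, scanner or direction for them. Per the values, 2 raised to each of the 6 full-precision columns was a quotient of whole numbers up to 65535 for 100% of spots (relative tolerance 1e-13). Array medians ran from -0.68 to -0.22 where Cy3 marked the transgenic RNA and from 0.74 to 1.50 where Cy5 did, and 4.30% to 6.59% of spots were empty. No depth exists for arrays, and their number limits the precision.

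Each array was corrected by loess (span 0.3) on probe signal, the 75th percentile over arrays of the geometric mean of the recovered whole numbers. Of 21112 probes in the platform's gene table, 21082 had a single gene and 30 several, and 20456 of the former matched the RefSeq annotation (GRCm38.p6), which also gave the order of genes. Probes of a gene were averaged, then the 2 arrays of a pair where both had a value. Features with at least 2 pairs per group were fitted in limma 3.58.1 (R 4.3.3) with a mean per group (4 residual and 3.85 prior degrees of freedom). P-values were adjusted by Benjamini-Hochberg over all features. The procedure was tested on simulated data. Alternatives were median centring, no centring, a span of 0.7, each dye orientation alone, leaving out each pair, a sex term, no moderation and leaving out the dimmest 25% of probes. With 1 Vnn1 probe, no alternative by probe could be run.

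Named were Vnn1, all of its pathway list, the 2 lowest and 2 highest means of the other lists, 3 neighbours on each side and the 6 genes most like it. The genes and lists were chosen with earlier results of these data known.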

Additional observations from a re-analysis of the deposited data

How the results depend on the processing

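The mean of Vnn1 over 6 pairs was negative under all 15 alternatives (1 of them chosen after the values were seen), and that at 4 months under all 14. They passed the threshold only with the values as deposited and not centred, at -1.07 (limma adjusted p = 0.0204) and -1.36 (adjusted p = 0.0436), a setting in which 5964 and 2548 features passed. Leaving out a pair gave -1.84 to -0.69 over 6 pairs and -1.95 to -1.24 at 4 months. At 10 days the range was -2.03 to 0.25, positive without pair 13. For 4 months minus 10 days it was -1.89 to 0.40, positive without pair 15, and for female minus male -1.20 to 3.71, negative without pair 15. All other alternatives kept the sign of these 3 results, and none passed. The number of features called over 6 pairs was 12 as reported, 14 with a span of 0.7, 8 without the dimmest probes, 1411 and 3439 with Cy3 or Cy5 arrays alone, 1 without moderation, and 0 with median centring or a sex term. Without pairs 1, 3, 5, 11, 13 and 15 it was 0, 0, 15, 4, 0 and 0. The littermate pairs were kept throughout, but 4 months and 10 days could not be paired with each other because the groups share no replicate numbers. Signal over background is unknown, so a limit for dim spots cannot be given.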

Other observations

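Of the 17048 named genes on all 12 arrays, 7 others had pair values that spread at least as much as those of Vnn1 and kept 1 sign on both arrays of every pair. They were singled out after their values were seen, and no test was made. Deptor, an inhibitor of the mTOR kinase, was at -3.75 in pair 1 and 2.52 in pair 5, and Cyp2f2, a cytochrome P450 gene, at -4.21 in pair 15. Bhmt was at -6.44 in pair 5. Hspa1b, a heat shock protein gene, was at -3.84 in pair 1, and Rps28, a ribosomal protein gene, at -3.69 in pair 3 and 2.77 in pair 13, both with near-identical copies elsewhere in the genome. Avpr2, the vasopressin V2 receptor gene, was at -1.21, 1.53 and 1.45 in pairs 1, 3 and 5 and at -1.74, -2.38 and 0.19 in pairs 11, 13 and 15, with the same sign in each pair as Cyp21a1. None of the 7 had the sign of Vnn1 in more than 4 of 6 pairs.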
